A study of Mus musculus with 4 samples.

Results

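The cytosolic ribosomal protein genes were followed in mouse regulatory T (Treg) cells whose Foxp3 gene had been removed. Foxp3 is the factor on which the identity of these suppressive CD4+ cells rests. Members were all probe sets of the array whose only gene symbol begins with Rpl or Rps and a digit, or is Rpsa, Rplp0, Rplp1 or Rplp2, without ribosomal S6 kinase genes and pseudogene symbols. A probe set is a group of short oligonucleotides summarised as 1 value, and some probe sets can read several transcripts. The rule found 106 probe sets of 50 genes, among 34945 probe sets and 18193 genes with a single symbol. Of the 50 genes, 43 encode core ribosomal proteins, 6 are paralogs (Rpl3l, Rpl7l1, Rpl22l1, Rpl39l, Rps4l and Rps27l) and 1, Rps19bp1, encodes a protein that binds Rps19 and is no part of the ribosome. Rplp1 had no probe set of its own.

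The study had 4 single-colour arrays, 1 per sample, with 2 samples in each group. Each sample held T cells positive for CD4, YFP and Ly5.2, treated with HR-MMPCreGFP to supply Cre recombinase and taken 6 weeks after they were moved into recipient mice. In the Foxp3-deleted group (Foxp3delta) the Foxp3 gene was flanked by loxP sites that Cre can excise, and in the control group (Foxp3+) it was wild type, so that the controls had seen Cre as well. YFP, whose expression depends on Cre, marked the exposed cells. The labels give no strain or age and do not say whether samples came from separate animals, so a p-value reflects the spread among these 4 samples alone, and that spread may be technical. The question was what loss of Foxp3 does to mature, peripheral Treg cells, asked here of the ribosomal protein genes.

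A ribosome is built from a small subunit, which reads the mRNA, and a large subunit, which joins the amino acids. Each holds ribosomal RNA and many ribosomal proteins. The genes for these proteins are expressed in every cell, at high and closely matched levels, and their mRNAs share a start made of pyrimidines (a terminal oligopyrimidine or TOP tract) through which the kinase mTOR and the RNA-binding protein Larp1 control their translation. T cells raise ribosome production when they are activated and grow, under the influence of Myc and mTOR.

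The annotated transcription starts of 8 members described below are shown, 5 with a pyrimidine tract led by C and 3 without. Each line holds 15 bases before and 15 bases from the start, 5′ to 3′ on the gene's strand, and capitals mark the unbroken run of C and T that begins at the first transcribed base.
Rplp2: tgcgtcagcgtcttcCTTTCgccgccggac
Rpl35: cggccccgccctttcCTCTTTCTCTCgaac
Rpl38: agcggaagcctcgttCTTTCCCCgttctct
Rps6: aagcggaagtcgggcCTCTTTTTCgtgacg
Rps10: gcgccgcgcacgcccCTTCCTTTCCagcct
Rplp0: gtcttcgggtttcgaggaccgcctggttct
Rpl22l1: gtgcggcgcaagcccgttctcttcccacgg
Rps9: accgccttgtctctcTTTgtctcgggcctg
The first 5 begin with C and run on for 5 to 11 pyrimidines, whereas the annotated starts of Rplp0 and Rpl22l1 fall on G and that of Rps9 on a run of 3 T. The sequences are from RefSeq (build GRCm38.p6) and lie at chr7:141447636-141447665 for Rplp2, chr2:39005117-39005146 for Rpl35, chr11:114668565-114668594 for Rpl38, chr4:86857353-86857382 for Rps6 and chr17:27635230-27635259 for Rps10. Those of Rplp0, Rpl22l1 and Rps9 lie at chr5:115559452-115559481, chr3:28805493-28805522 and chr7:3704026-3704055. Rpl35, Rps6 and Rps10 are on the minus strand and the others on the plus strand.

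Start windows were found for 44 of the 50 genes, 52 windows in all, each with 250 bases before the start and 50 from it. A start at C with at least 5 pyrimidines in a row was present in 8 of the 52 windows (15.4%), against 2.51% of 32851 windows of all genes. A run of at least 8 pyrimidines anywhere from 10 bases before to 20 bases past the start was present in 17 of them (32.7%, against 11.2%). The letters CCGGAAG, the core that ETS family factors bind, were on either strand of 21 member windows (40.4%, against 8.86% of all windows). The letters AAGATGGC, part of the element that YY1 binds, were in 4 (7.69%, against 2.75%), and TATAAA was in 6 (11.5%, against 13.6%). None of these strings contains another, and an annotated start can lie some bases from the true one. In the comparison described next, the 7 tested members with the C-led tract had a median log2 difference of 0.13 between the groups (5 of 7 higher in deleted cells), and the 34 with a window but no such tract had 0.07 (20 of 34 higher).

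Some features of the arrays are given before the ribosomal protein values. Foxp3 itself read 8.77 and 8.75 (log2 intensity) in deleted and 11.40 and 11.23 in wild-type arrays. Of the CD4 T cell markers 7 of 7 measured were above a log2 intensity of 4, the level below which probe sets pile up near the floor, and Cd8a and Cd8b1 lay below it. Control probe sets for the ends of housekeeping transcripts differed between the groups. The 3′ end of Actb exceeded its 5′ end by 4.91 and 4.47 (log2) in deleted arrays but by 7.26 and 6.60 in wild-type arrays, and for Gapdh by 5.89 and 4.17 against 7.24 and 7.08. The 5′ probe set for 18S ribosomal RNA read 12.35 and 13.44 against 11.09 and 11.20. The 2 deleted arrays also differed from each other. Myeloid markers summed to an intensity of 9738 in deleted replicate 1 against 2951 in replicate 2, and to 2317 and 2433 in the wild-type arrays. In deleted replicate 1, S100a8 read 12.10, S100a9 read 11.80 and Lyz2 read 9.69, compared with at most 10.60, 9.68 and 7.24 on the other arrays. Csf1r was highest on that array too, by a smaller margin (9.85, at most 9.06 elsewhere). Adgre1 did not rise there, with 4.33 on deleted replicate 1 and readings from 4.32 to 4.44 elsewhere. Of the 7 myeloid markers 5 were above 4, while Itgam and Cd14 were below it on average. B cell markers differed between the groups, with summed intensities of 39.2 and 52.8 in deleted arrays, and of 124 and 114 in wild-type arrays. Of these markers 1 of 4 was above 4 on average, Cd79b, with 4.04 and 4.94 against 6.58 and 6.49, and Cd79a, Ms4a1 and Pax5 were below it. The part of RNA quality or of other cells in the ribosomal protein values was not tested. In bulk samples, fewer cells of a type and less RNA per cell cannot be told apart.

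**Figure D1:**
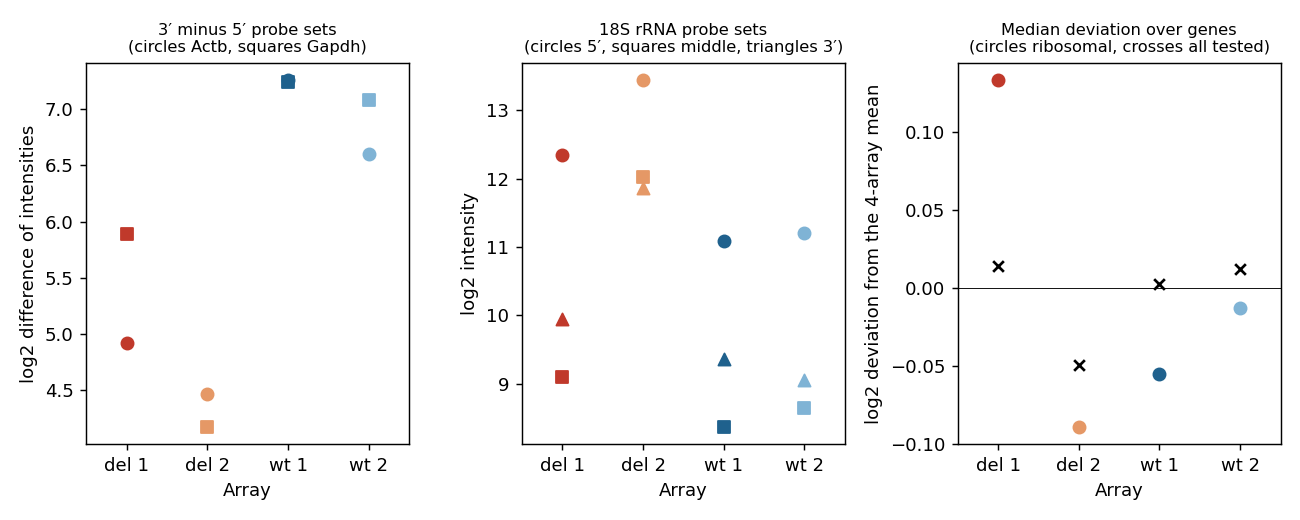
Left, log2 difference between the 3′ and 5′ probe sets of Actb and Gapdh on each array (del, Foxp3-deleted; wt, wild type). Middle, log2 intensity of the 18S rRNA probe sets. Right, median over genes of the log2 deviation from the mean of the 4 arrays. The 3′ excess was between 4.17 and 5.89 in deleted and between 6.60 and 7.26 in wild-type arrays, and the ribosomal protein genes sat highest on deleted replicate 1 (0.13) and lowest on deleted replicate 2 (-0.09).

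The ribosomal protein genes differed little between Foxp3-deleted and wild-type cells. With 1 probe set per gene, 46 of the 50 genes had a mean log2 intensity of at least 4 and were tested, and 0 of them passed an adjusted p of 0.05 in limma, where 0% of all 8629 genes tested passed. At an unadjusted p under 0.05, 3 members were higher (background 5.21%) and 1 was lower (background 4.74%). The median log2 difference, deleted minus wild type, was 0.09 over the members and -0.02 over all genes tested. A higher mean in deleted cells was found for 29 of 46 members, against 48.1% of all genes. Both deleted arrays lay above both wild-type arrays for 12 members, which is 26.1% where 17.7% of all genes did so, and below them for 10, which is 21.7% where 22% of all genes did so.

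The spread over the members was narrow. Differences ran from -0.66 (Rpl27a) to 1.02 (Rpl22l1), and 40 of 46 stayed within 0.5 of zero. A difference of at least 0.5 in either direction was found for 6 members (13%), against 36.1% of all genes. Over all tested probe sets, dimmer ones included, these shares were 18% and 37.6%. The median log2 intensity of the members lay between 13.83 and 14.28 on the 4 arrays. They were not compared with genes of like intensity, here or for the replicates. The replicates of the members lay close together as well: the median absolute difference between the deleted arrays was 0.25 and between the wild-type arrays 0.13, against 0.42 and 0.43 over all genes tested. The 95% intervals of the differences had a median half-width of 0.51, and for 33 of the 46 genes the whole interval lay between -1 and 1. A change of the size seen for Foxp3, -2.55 (SE 0.28, adjusted p = 0.0749 in limma), lay outside the interval of every tested member.

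**Figure D2:**
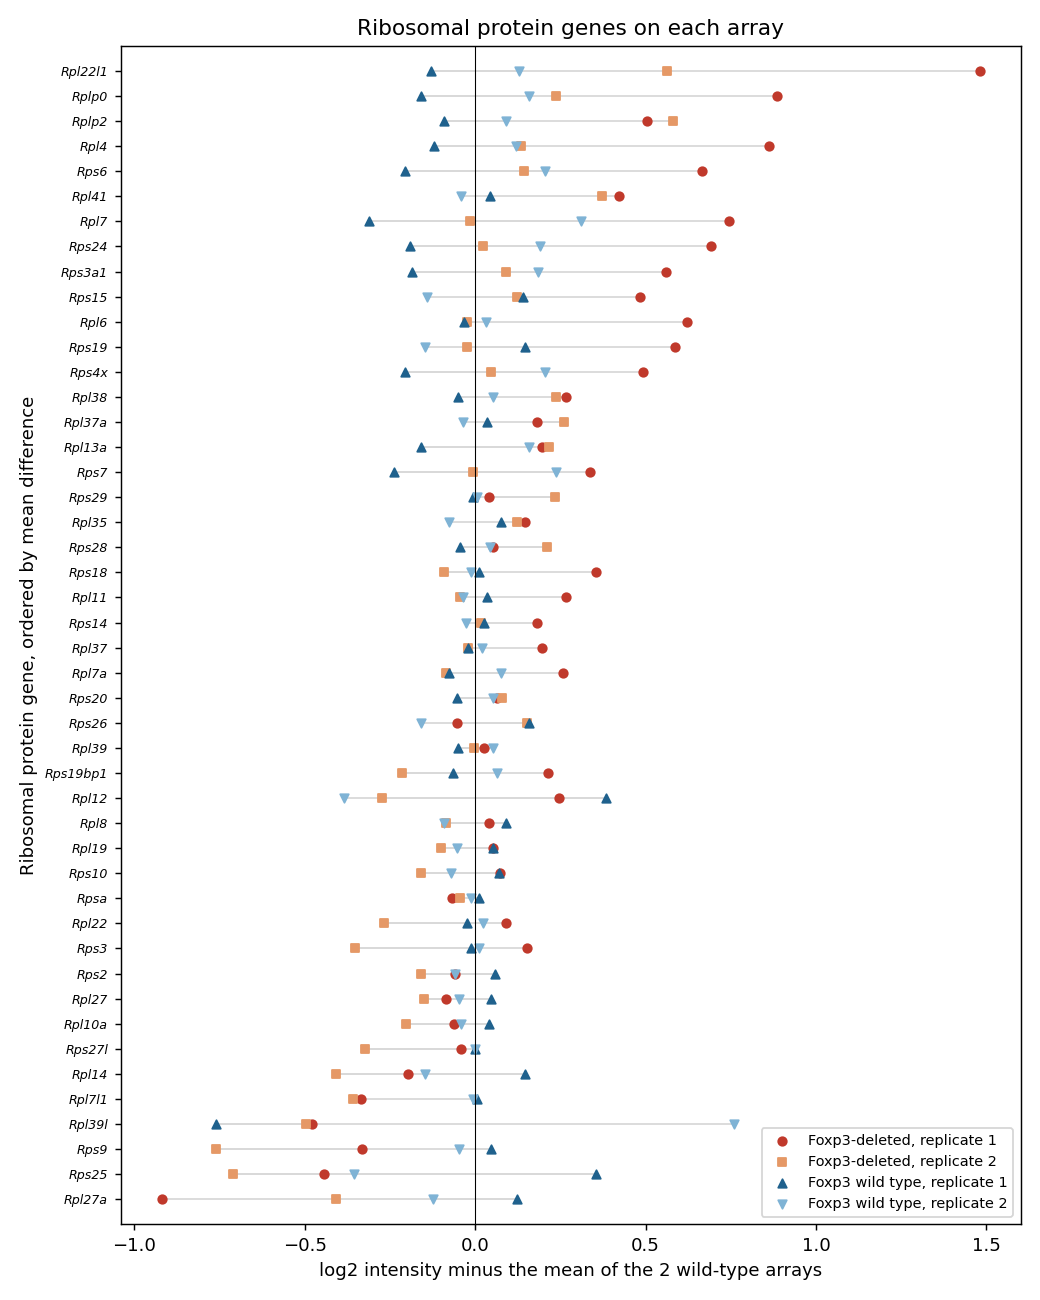
Log2 intensity of each of the 46 tested genes on each array, minus the mean of its 2 wild-type arrays; a grey line joins the 4 arrays of a gene. Genes are ordered by the mean difference, from Rpl27a (-0.66) to Rpl22l1 (1.02). Deleted replicate 1 is the highest of the 4 arrays for 25 genes.

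Deleted replicate 1 stood apart in this order. It gave the highest reading of the 4 arrays for 25 of the 46 members, against 25.1% of all genes tested, and the lowest for 2 (21.9% of all genes). Deleted replicate 2 gave the highest for 6 (23.6% of all) and the lowest for 16 (29.98% of all). Wild-type replicate 1 gave the lowest for 19 (27.5% of all). Without deleted replicate 1, 27 of 46 members had a lower mean in deleted cells and the median difference was -0.02, with -0.05 over all genes tested. Without deleted replicate 2, 12 members were lower, 34 were higher and the median was 0.18, with 0.01 over all genes tested. Against the median of all genes tested the members were higher in both cases, by 0.03 and by 0.17.

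The stalk is the flexible arm of the large subunit that recruits translation factors. Of its genes, Rplp2 and Rplp0 were among the members with the largest positive differences. Rplp2 read 15.04 and 15.12 in deleted arrays against 14.45 and 14.63 in wild-type ones, with a difference of 0.54 (SE 0.13) and, of all members, the smallest p (unadjusted p = 0.00803, adjusted p = 0.281 in limma). With each array left out in turn the difference ranged from 0.45 to 0.63. Rplp0, which anchors the acidic stalk proteins, read 15.16 and 14.51 against 14.12 and 14.43, a difference of 0.56 (SE 0.25, adjusted p = 0.578). Its deleted arrays differed by more than the group means, and without deleted replicate 1 the difference was 0.24. The probe set that reads Rplp1, and also a predicted gene, gave 14.80 and 14.84 against 14.77 and 14.52, a difference of 0.18. In each of the 3 stalk genes both deleted arrays thus lay above both wild-type arrays, where 17.7% of all genes tested did so. For Rplp0 and Rplp1 the nearest pair was only narrowly apart.

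In the large subunit 12 of 20 tested core proteins had a higher mean in deleted cells, with a median of 0.09. Without overlap 6 were higher and 4 were lower, where 17.7% and 22% of all genes tested were. Rpl41, the smallest ribosomal protein, read 14.71 and 14.66 against 14.33 and 14.24, a difference of 0.40 (SE 0.13, unadjusted p = 0.0245, adjusted p = 0.399 in limma) that lay between 0.36 and 0.44 whichever array was left out. That probe set is of a type that can bind other sequences, and with this type left out the gene's value was -0.13. Rpl4, which lines the tunnel through which the new protein leaves, read 13.64 and 12.91 against 12.66 and 12.90. Its deleted arrays were far apart and replicate 2 stood just above the wild-type arrays (difference 0.50, SE 0.29, or 0.13 without deleted replicate 1). Rpl7 showed the same split, with 14.38 and 13.62 against 13.32 and 13.94, and overlapping groups. Rpl38, which is needed for translation of particular Hox mRNAs in the embryo, read 14.43 and 14.40 against 14.11 and 14.22 (difference 0.25, SE 0.13, adjusted p = 0.656).

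Other large subunit proteins have known roles beside the ribosome. Rpl11, which can bind and inhibit the p53 ligase Mdm2, read 13.84 and 13.53 against 13.61 and 13.54. Rpl13a, a part of a complex that silences translation of inflammatory mRNAs, read 15.43 and 15.45 against 15.08 and 15.39, a difference of 0.21 (SE 0.14, adjusted p = 0.725) that was 0.05 without wild-type replicate 1 and 0.36 without wild-type replicate 2. Its 3 dimmer probe sets gave 0.40, 0.51 and 1.09, and the mean over its probe sets gave 0.55. Rpl22, on which alpha beta T cell development depends in mice, read 14.76 and 14.40 against 14.64 and 14.69. For Rpl11 and Rpl22 the groups overlapped. The sign turned without deleted replicate 1 for Rpl11 (-0.05) and without deleted replicate 2 for Rpl22 (0.09).

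At the low end of the large subunit, Rpl27a read 8.91 and 9.42 in deleted arrays against 9.95 and 9.71 in wild-type ones, a difference of -0.66 (SE 0.34, adjusted p = 0.642 in limma), the most negative of all members. It was -0.41 without deleted replicate 1, and a much brighter probe set that also carries predicted genes read 14.14 and 14.16 against 14.14 and 14.07. Rpl14 read 8.88 and 8.67 against 9.22 and 8.93 (-0.30) and Rpl10a read 14.71 and 14.57 against 14.82 and 14.73 (-0.13). On the tested probe sets of these 3 genes both deleted arrays were below both wild-type arrays, though only narrowly at the nearest pair for Rpl14 and Rpl10a. On 5 brighter probe sets that carry Rpl14 beside other symbols the groups overlapped. Their differences lay between -0.12 and 0.52, with 4 lower and 1 higher.

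In the small subunit 13 of 19 tested core proteins had a higher mean in deleted cells (median 0.13). Without overlap 3 were higher and 4 were lower, where 17.7% and 22% of all genes tested were. Rps6, the substrate of the S6 kinases that act below mTOR, read 9.91 and 9.39 against 9.04 and 9.45 on its own probe set, so that the groups overlapped (difference 0.40, SE 0.36, adjusted p = 0.778). Without deleted replicate 1 it was 0.14, and without wild-type replicate 1 it was 0.20. On 8 further probe sets above the filter that also carry the symbol of an Rps6 pseudogene, and so were not tested, the difference lay between -0.24 and -0.03. Rps24 and Rps19, both mutated in Diamond-Blackfan anaemia, had differences of 0.36 (SE 0.27) and 0.28 (SE 0.27). Rps24 read 14.55 and 13.88 against 13.66 and 14.04, and Rps19 13.36 and 12.75 against 12.92 and 12.63. Without deleted replicate 1 the differences were 0.02 and -0.02, and the plain-type probe set of Rps24, a dim one, gave -0.23. A probe set near the floor that carries Rps19 beside another symbol gave -1.12, from 4.38 and 3.64 against 5.47 and 4.79.

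Rps9, Rps3 and Rps2 line the channel by which mRNA enters the small subunit. Rps9 read 13.47 and 13.04 in deleted arrays against 13.85 and 13.75 in wild-type ones, a difference of -0.55 (SE 0.20, unadjusted p = 0.0403, adjusted p = 0.471 in limma), though its other probe sets did not share the direction. Without deleted replicate 2 it was -0.33. Rps3 read 14.31 and 13.81 against 14.15 and 14.17 (-0.10), and Rps2 read 14.10 and 14.00 against 14.21 and 14.10 (-0.11). Rps3 changed sign without deleted replicate 2 (0.15). Rps25, which some viral mRNAs need to start translation without a cap, read 10.25 and 9.98 against 11.04 and 10.34 (-0.58, SE 0.35), a difference that was -0.22 without wild-type replicate 1 and -0.93 without wild-type replicate 2. Rps10 overlapped, with 14.89 and 14.66 against 14.89 and 14.75 (-0.04). Rpsa, a small subunit protein also known as the laminin receptor, was nearly level, with 14.63 and 14.66 against 14.71 and 14.69 (-0.06).

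The paralogs held the largest single difference. Rpl22l1, the paralog of Rpl22 that is normally held low where Rpl22 is present, had linear intensities of 2701 and 1429.7 in deleted and 886 and 1059 in wild-type arrays. On the log2 scale these were 11.40 and 10.48 against 9.79 and 10.05, a difference of 1.02 or 2.03-fold (SE 0.39, unadjusted p = 0.0448, adjusted p = 0.488 in limma). It was the only member with a difference of at least 1 and groups that did not overlap, where 5.57% of all genes tested were that much higher and 4.93% that much lower. Deleted replicate 1 was the array with the highest reading, and without it the difference was 0.56. Rpl22 itself differed by -0.09.

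Of the other paralogs, Rpl7l1, which takes part in ribosome assembly in the nucleolus, read 9.84 and 9.81 against 10.18 and 10.17 (-0.35, SE 0.27). Its dimmer probe sets differed in sign, with 0.10 and, close to the floor, -0.95. Rps27l, a p53 target, read 10.69 and 10.40 against 10.73 and 10.73 (-0.18). Rpl39l, best known from testis, was close to the floor, with 3.83 and 3.81 against 3.55 and 5.06, and its sign turned without wild-type replicate 2 (0.27). Rps19bp1 had a mean of 7.58 in both groups. Rpl3l, a paralog of heart and skeletal muscle, read between 2.47 and 2.55 on the 4 arrays and Rps4l between 2.37 and 2.40. These lay below the filter, as did the only single-symbol probe sets of Rps16 (2.11 to 2.17) and Rps27 (2.70 to 3.12). For Rps16 the 2 probe sets annotated to it together with a pseudogene had means of 14.33 and 15.53. Which of its probe sets reads the Rps16 transcript was not tested. The probe set shared by Rps27 and Rps27rt likewise read between 15.26 and 15.49.

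Where a gene had several probe sets, they often gave different answers. Of the 106 probe sets, 53 had a mean log2 intensity of at least 13, 36 lay between 4 and 13, and 17 lay below 4. Of the 89 that were tested, 60 were higher in deleted cells with a median of 0.11, against 50.5% of 13999 probe sets tested, and 0 passed an adjusted p of 0.05 in limma (0% of all), with 6 higher (background 5.58%) and 2 lower (background 3.98%) at an unadjusted p under 0.05. Of these 89, 29 were higher without overlap (background 19%) and 13 were lower (background 20.8%). A difference of at least 1 without overlap was found for 2 that were higher (background 6.67%) and 0 that were lower (background 4.44%). Probe sets of 1 gene share the transcript and are not independent.

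For 20 genes over 1 probe set was tested, and for 8 of them the signs differed. Rps9 was the widest, with -0.55, 0.02 and 0.69, where the last came from readings of 13.03 and 11.63 in deleted arrays against 11.60 and 11.66 in wild-type ones and so from deleted replicate 1 alone. Rps18 had 0.47, 0.13 and -0.21. The 4 probe sets of Rpl13a were all higher, from 0.21 on the brightest to 1.09 on one that read 14.01 and 13.16 against 11.95 and 13.04. Rpl35 had 5, all higher without overlap, from 0.13 to 0.77, and Rpl37a had 3, from 0.21 to 0.60. The dimmest tested probe set of Rpl35 read 12.63 and 12.56 against 11.93 and 11.72, with adjusted p = 0.365 over all probe sets tested in limma. By contrast the 3 probe sets each of Rps28 (0.11 to 0.15) and Rps29 (0.14 to 0.17) were nearly identical.

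**Figure D3:**
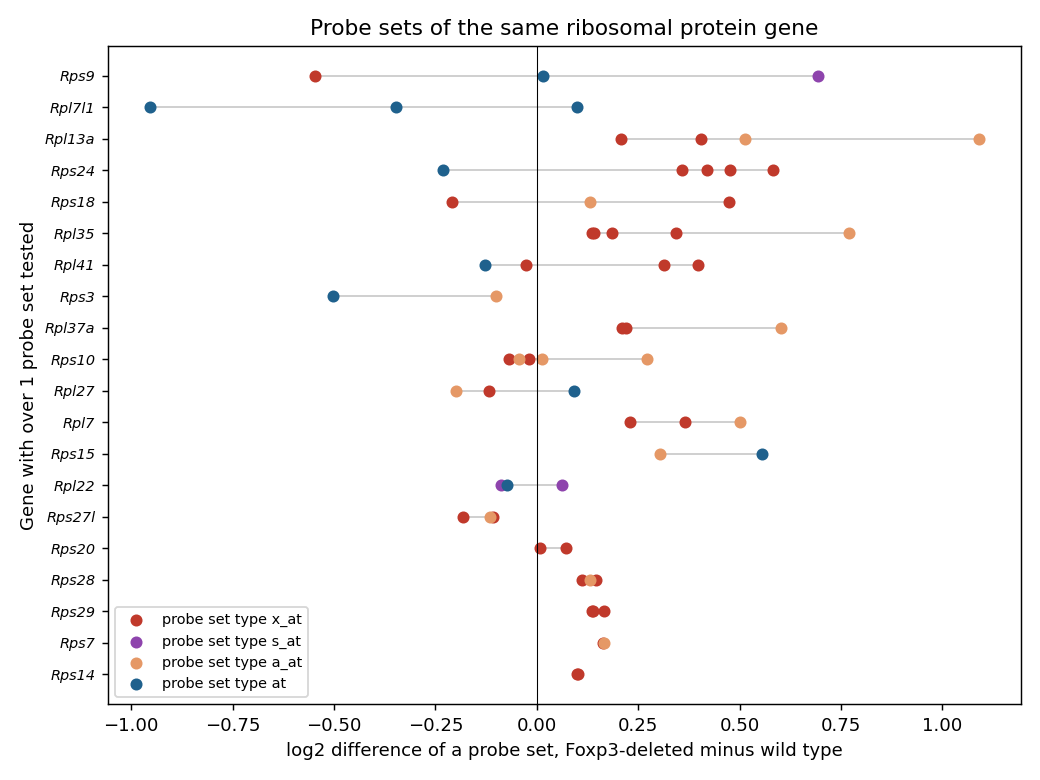
Log2 difference (deleted minus wild type) of every tested probe set for the 20 genes with over 1, coloured by the type that ends the probe set's identifier; a grey line joins the probe sets of a gene. Genes are ordered by range, from Rps14 at the bottom to Rps9, whose probe sets lie at -0.55, 0.02 and 0.69.

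The members' probe sets were also split by type. Identifiers ending in x_at mark probe sets in which some oligonucleotides can bind other sequences, and 38 of the tested member probe sets were of this type. Of these 29 were higher in deleted cells (median 0.14), while 36.0% of all 1115 tested x_at probe sets were. Those ending in a_at, which read several transcripts of 1 gene, were higher in 21 of 27 cases (median 0.27), against 52.6% of all tested a_at probe sets. The plain type was higher in 8 of 21 (median -0.06), against 52.3% of all. When x_at and s_at probe sets were left out, 40 member genes could be tested and their median was 0.03.

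A further 110 probe sets carried several symbols, among them a ribosomal protein gene beside, for example, pseudogenes or predicted genes, and were not members. They covered 31 ribosomal protein genes that had no probe set of their own and 15 that had. Of the 100 with a mean of at least 4, 59 were higher in deleted cells, the median was 0.05, 33 were higher and 14 lower without overlap (backgrounds 19% and 20.8%). Of the 4 such probe sets for Rps12 above the filter 3 were higher, and 2 of these read 13.55 and 13.51 against 12.84 and 12.84, and 9.99 and 9.97 against 9.25 and 9.22. The third, close to the floor, gave 0.21. The brightest for Rps12 read 14.68 and 14.87 against 14.85 and 14.80 (-0.05), so that the groups overlapped. Rps25 read 13.51 and 13.36 against 12.92 and 12.66, a difference of 0.65 where its own probe set gave -0.58. Rps7 gave 1.78 on one such probe set, from 11.72 and 10.22 against 8.60 and 9.77, where its own brightest gave 0.17. Other genes were lower on such probe sets. The 3 of Rpl5 above the filter gave -0.13, -0.72 and -1.08, the last without overlap. Those of Rpl17 ran from -0.99 to 0.26, with 3 lower and 1 higher.

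The replicates were also compared with each other. Deleted replicate 1 exceeded deleted replicate 2 for 37 of 46 genes (80.4%), against 55.3% of all genes tested. Wild-type replicate 2 exceeded wild-type replicate 1 for 24 of 46 (52.2%, against 48.6%), and both held for 19 of the 46 (41.3%, against 33.2%). Rpl4, Rpl7, Rplp0, Rps3a1, Rps4x, Rps6, Rps7 and Rps24 were among the 19. Rps3a1, for example, read 14.84 and 14.37 in deleted and 14.09 and 14.46 in wild-type arrays. Among genes outside the ribosome, Naca, a subunit of the complex that binds nascent proteins, followed the same order more widely, with 13.33 and 11.80 against 11.02 and 12.45.

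**Figure D4:**
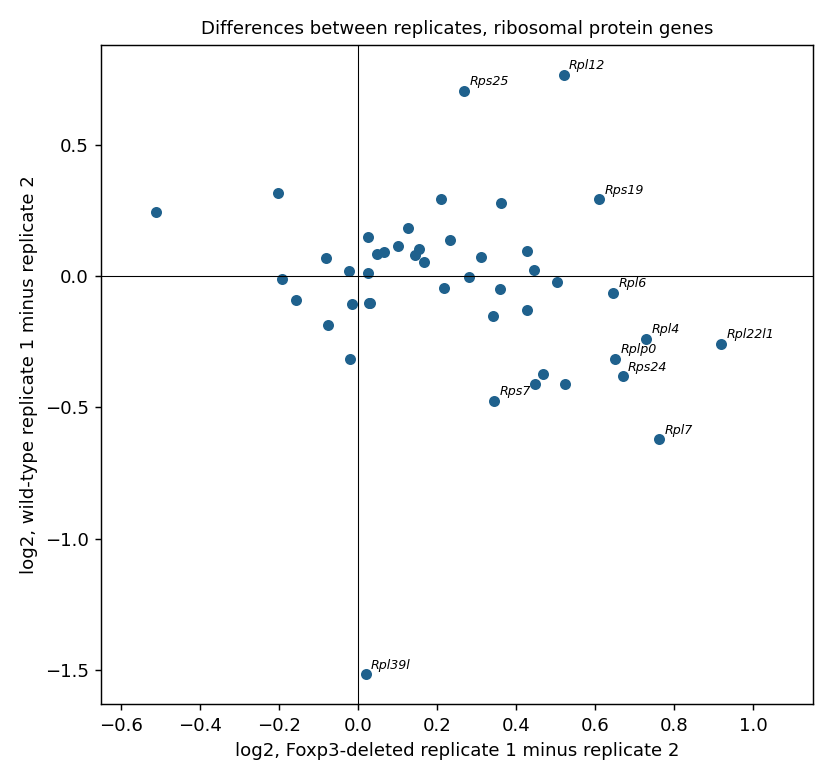
Log2 difference between the replicates of each group for the 46 tested genes, deleted arrays on the horizontal and wild-type arrays on the vertical axis. Of these genes 37 lie to the right of zero, and 19 lie to the right and below, among them Rpl7, Rps24, Rplp0 and Rpl4.

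Other parts of the translation machinery were set beside the ribosomal proteins, by lists drawn from textbook membership. Fau, which encodes a small subunit protein fused to a ubiquitin-like one, read 14.07 and 13.66 against 13.67 and 13.50 (0.28, SE 0.20), or 0.08 without deleted replicate 1 and 0.48 without deleted replicate 2. Of 75 tested mitochondrial ribosomal proteins 36 were higher and 39 lower (median -0.01). Mrps5 had the largest difference, 1.84 (SE 0.38, adjusted p = 0.219 in limma), with 7.57 and 6.97 against 5.41 and 5.45, but its other probe sets above the filter gave -1.03 and -0.30. Mrps6 was at -1.14 (SE 0.30), with 9.34 and 9.01 against 10.29 and 10.35, while its other, dimmer probe set gave -0.41. In neither list did a gene pass an adjusted p of 0.05 in limma, nor in those that follow.

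Of 16 other genes with TOP mRNAs 7 were higher and 9 lower (median -0.06). Eef2, the factor that moves the ribosome along the mRNA, read 12.53 and 12.72 in deleted arrays against 11.61 and 11.65 in wild-type ones, which is 1.99-fold higher (log2 difference 0.995, SE 0.21, adjusted p = 0.219 in limma). The difference lay between 0.90 and 1.09 with each array left out. Naca was at 0.83 (SE 0.67), or 0.07 without deleted replicate 1 and 0.11 without wild-type replicate 1, and 1.60 and 1.55 without the other replicate of each group. Of 46 translation initiation factors 20 were higher and 26 lower (median -0.08), with Eif3a at 1.14 (SE 0.45) and Eif4e3 at -0.98 (SE 0.68). Eif3a read 13.33 and 13.58 against 11.65 and 12.99. Its difference was 0.47 without wild-type replicate 1 and 1.81 without wild-type replicate 2, and its other probe sets gave 0.19 and 0.82. Eif4e3 read 10.73 and 8.70 against 10.70 and 10.68, so that deleted replicate 2 alone was low.

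Of 65 tested genes that assemble ribosomes 27 were higher (41.5%, against 48.1% of all genes tested) and 38 lower, with a median of -0.10. The largest differences were positive, for Ltv1, which helps to mature the small subunit (1.83, SE 0.88), and for Nop58, a core protein of the particles that modify ribosomal RNA (1.68, SE 0.47). Ltv1 read 7.43 and 5.84 against 3.74 and 5.87, and its groups overlapped. Without wild-type replicate 1 its difference was 0.77, without wild-type replicate 2 it was 2.90 and without deleted replicate 1 it was 1.04. Nop58 read 7.996 and 7.20 against 5.55 and 6.28.

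Of 28 tested regulators of ribosomal protein synthesis 15 were higher and 13 lower (median 0.05). Ddit4, which restrains mTOR under stress, read 10.03 and 10.35 against 8.39 and 8.11, a difference of 1.94 (SE 0.33, adjusted p = 0.137 in limma). Sesn1, another inhibitor of mTOR signalling, went the other way, with 8.996 and 8.32 against 10.02 and 10.39 (-1.54, SE 0.38, adjusted p = 0.281), and its 3 other probe sets above the filter were lower too, with differences from -2.26 to -1.05. Myc read 7.41 and 6.72 against 8.44 and 7.26 (-0.79, SE 0.54), Mtor 7.55 and 7.81 against 8.23 and 7.97 (-0.42, SE 0.35) and Larp1 9.80 and 9.92 against 9.02 and 9.55 (0.58, SE 0.33). The Myc difference was -0.20 without wild-type replicate 1, -1.38 without wild-type replicate 2 and -0.44 without deleted replicate 2, and that of Larp1 was 0.31 without wild-type replicate 1. Of these, the groups overlapped for Myc and not for Ddit4, Sesn1, Mtor or Larp1.

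**Figure D5:**
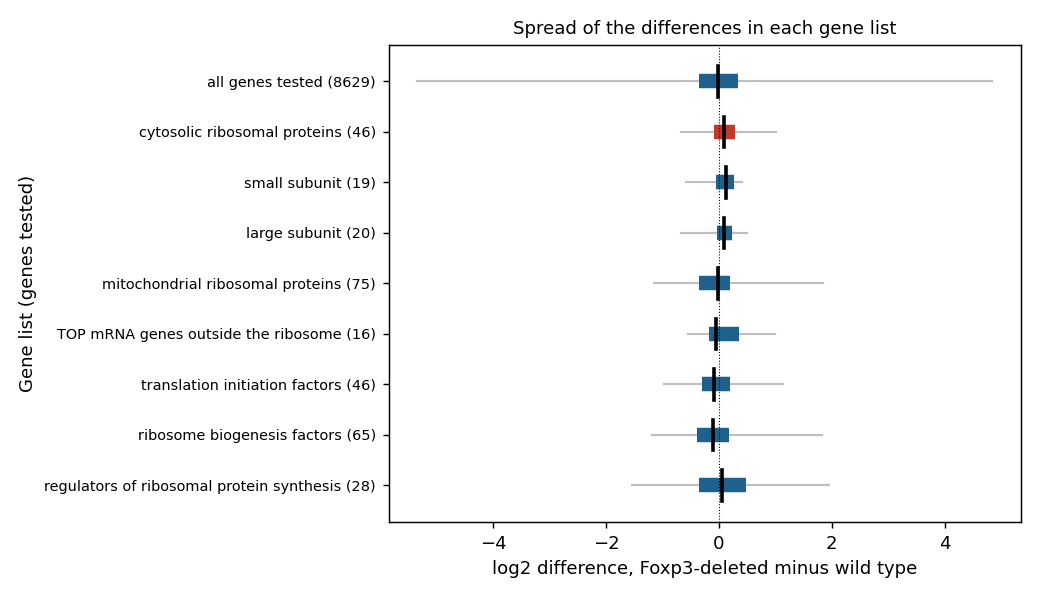
Log2 difference (deleted minus wild type) in each gene list, with the number of genes tested in brackets. Thin lines give the full range, thick bars the middle 50% of genes and black ticks the median. The ribosomal proteins run from -0.66 to 1.02 around a median of 0.09, and all genes tested from -5.34 to 4.84 around -0.02.

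Precision is limited by the number of arrays, 2 per group. Intensities are relative to the RNA on each array, so a change in ribosomal protein mRNA that ran in step with total mRNA could not be seen.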

How the data were processed

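RNA of 4 samples was measured on single-colour arrays. Total RNA came from RNeasy columns and was labelled through Message Amp II with biotin, per the labels' protocols. Each deposited intensity is linear. The submitters' processing notes name GCRMA 1.1.3, which corrects the background by probe sequence and summarises the probes of a set. Its settings, and whether arrays were normalized to each other, are not stated in those notes. No array equalled another.

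The log2 of each value was taken with no pseudocount. Probe sets with several symbols or none and 64 control probe sets were left out of the tests. Each gene was represented by its brightest probe set, and those averaging at least 4 on the log2 scale entered a fit in limma 3.58.1 and R 4.3.3 with a trend on intensity (two-sided, Benjamini-Hochberg over all genes tested, threshold 0.05, prior worth 3.31 degrees of freedom). The same fit was run on all 13999 probe sets above the filter. The procedure was tested on simulated data. Alternatives changed the probe sets used, the filter, the scaling of arrays, the variance trend, the replicate block and the arrays kept. Tables and plots used Python 3.11.15, pandas 2.3.3 and matplotlib 3.10.9. All 106 member probe sets matched the mouse gene table by Entrez identifier, with 0 symbols changed.

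The members and lists were chosen with earlier results of these data known. The rule for named genes took the 8 lowest and 8 highest members, those past 1 without overlap, the paralogs, a fixed set of members with known roles, 2 genes of each of 6 further lists, and Foxp3, Myc, Mtor and Larp1. Rps2, Rps7, Rps10, Rps12, Rps14, Rps16, Rps18, Rps27, Rps28, Rps29, Rps3a1, Rps4x, Rpl17, Rpl35, Rpl37a and Rplp1 were named after their values were seen.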

Additional observations from a re-analysis of the deposited data

Results flagged for a closer look

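The 3 probe sets for 18S ribosomal RNA and the 5′ probe sets of Actb and Gapdh, which enter no comparison of the ribosomal protein genes, read higher in both deleted arrays than in both wild-type arrays. The log2 difference, deleted minus wild type, was 1.75 for the 5′, 2.05 for the middle and 1.70 for the 3′ probe set of 18S ribosomal RNA. It was 2.54 for the 5′ probe set of Actb and 2.15 for that of Gapdh, while their 3′ probe sets differed by 0.30 and 0.02. At the 3′ end the groups overlapped for Gapdh but not for Actb. The middle 18S probe set read 9.09 and 12.02 in deleted arrays against 8.37 and 8.64 in wild-type ones, so that deleted replicate 2 stood far above the others. How these differences relate to the ribosomal protein values was not tested.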

How the results depend on the processing

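Under the 14 alternatives run for each gene and 1 added after seeing the data, no ribosomal protein gene passed the threshold. Over all genes tested the number passing was 0 and became 60 when arrays were centred on the median of tested genes, with or without the members, 27 with a filter at 6, 30 with the mean over probe sets and 43 with quantile normalization. Of the named genes only Foxp3 passed in any of these. The replicate block gave 0 calls among all genes and 0 among members. Same-numbered deviations correlated at -0.30 over all genes, and the crossed replicate block also gave 0 calls. With each array left out in turn, where a lone sample is assumed to vary like the others, the median of the members ran from -0.022 to 0.18. Members with a lower mean numbered 12 to 27, those lower without overlap 10 to 18 and those higher without overlap 12 to 31. The lowest median and the highest count of lower means came without deleted replicate 1, and the 31 without deleted replicate 2.

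Of 39 named genes 28 kept their sign under every alternative that gave them a value. Rpl39l and Ltv1 had none with a filter at 6, and Rpl38 had none without x_at and s_at probe sets. Rps9 turned to 0.055 with the mean over probe sets, and without x_at and s_at probe sets it was 0.016, Rps24 -0.23 and Rpl41 -0.13, since other probe sets were read. Rps19bp1 was -0.027 with quantile normalization. Leaving out an array gave ranges of -0.016 to 0.75 for Rpl7, -0.023 to 0.59 for Rps19, -0.045 to 0.27 for Rpl11, -0.21 to 0.21 for Rps19bp1, -0.35 to 0.15 for Rps3, -0.27 to 0.090 for Rpl22, -1.25 to 0.27 for Rpl39l and -1.99 to 0.036 for Eif4e3. Otherwise the cause was not tested.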
